A study of Homo sapiens with 6 samples.

Results

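The ribosome of the cytosol is built from ribosomal RNA and a set of small, mostly basic proteins, called RPL for the large subunit and RPS for the small one. These proteins are needed in near equal numbers, and their mRNAs are among the most abundant of any growing cell. Many of these mRNAs begin with a 5′ terminal oligopyrimidine (TOP) tract, a C followed by a run of C and T bases, through which the mTOR kinase and the RNA-binding protein LARP1 set their translation. In red cell precursors, loss of one copy of certain ribosomal protein genes causes Diamond-Blackfan anaemia.

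RNA-seq was performed in K562, a BCR-ABL-positive erythroleukemia cell line established from chronic myeloid leukemia. The cells stably expressed either a control shRNA (sh-luc) or an shRNA against the long noncoding RNA lncRNA-IUR1 (sh-IUR1, named sh-up91 in the labels), with 3 libraries of each. The study asked how depletion of lncRNA-IUR1 alters gene expression in Abl-transformed cells. In each group 1 library carries no replicate number and the others are r1 and r2. The methods describe independent groups of cells, but the labels do not say whether they were separate cultures, so the spread between libraries may be partly technical.

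The genes described here are the protein-coding genes named RPL or RPS followed by a digit, with RPLP0, RPLP1, RPLP2 and RPSA. Of 12486 listed genes, 86 met this rule, without the RPS6K kinases and RPS19BP1. They comprised 77 core proteins (46 of the large and 31 of the small subunit), 6 paralogs of a core protein, and 3 readthrough genes that join a ribosomal protein gene to its neighbour. All 86 passed the minimum mean of 0.1 FPKM (fragments scaled to transcript length and to the mapped fragments of the library) used for testing. They lay on 21 chromosomes, with 12 genes on chromosome 19 and 9 on chromosome 3.

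The summed FPKM of all listed genes was 579820 to 606240 per library, and the number of reads behind each value is unknown. The erythroid identity of K562 was visible in all libraries: 13 of 13 erythroid markers were listed, with GATA1 between 182 and 200 FPKM and HBG2, a fetal globin, between 2559 and 3565 FPKM. Of 13 markers of T cells, B cells, monocytes and stroma, 6 were listed, and apart from LYZ (107 to 119 FPKM) each was below 5 FPKM in every library. lncRNA-IUR1 itself was not analysed here, so the depletion was not checked in these libraries. The study examined it by RT-PCR in K562 cells carrying either shRNA. One library stood apart in genes of the integrated stress response. In the unnumbered sh-luc library 18 of 18 listed genes had their lowest value. The 18 genes averaged 5.09 as log2(FPKM + 1) there, against 5.78 to 6.21 in the other libraries. Their median deviation from each gene's mean over 6 libraries was -0.73 there, beside -0.03 over all genes tested.

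Ribosomal protein mRNAs were a large part of the transcriptome of these cells. In sh-luc unnumbered, r1 and r2 they accounted for 30.3%, 29.4% and 28.7% of the summed FPKM. In sh-IUR1 unnumbered, r1 and r2 they accounted for 28.8%, 30.0% and 28.9%. The mean was 29.5% ± 0.804 in sh-luc and 29.2% ± 0.658 in sh-IUR1 (SD, n = 3), so the groups overlapped and differed by less than the spread between libraries. Large-subunit and small-subunit genes kept nearly the same proportion, since the ratio of their summed FPKM was 1.20 to 1.22 in every library. Of the 98 genes in the table with a mean above 1000 FPKM, 70 were ribosomal protein genes.

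The core proteins differed by 19.8-fold in mRNA level, although nearly all of them are present in equal number in a ribosome. Their median was 1922 FPKM, the 25th and 75th percentiles were 1556 and 2638 FPKM, and 62 of 77 fell between 1000 and 4000 FPKM. RPS2, a protein of the mRNA entry channel, was highest at 6712, 6820 and 6918 FPKM in sh-luc and 6778, 7445 and 6649 FPKM in sh-IUR1. RPL41, the smallest ribosomal protein, followed at 6996, 6318 and 5954 FPKM in sh-luc and 6098, 6487 and 6228 FPKM in sh-IUR1. The libraries of these neighbours in rank overlapped, so their order is not resolved. RPS18, at the head of the small subunit, had a mean of 5332 FPKM over 6 libraries and stood below both in every library.

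RPS27, a zinc-binding protein of the small subunit, and RPLP0, the base of the ribosomal stalk, came next with means of 4576 and 4548 FPKM. At the other end, 7 core proteins were under 1000 FPKM, and these were chosen after their values were seen: RPL37 (917 FPKM), RPL15 (778), RPL13 (604), RPS23 (515), RPS26 (510), RPL22 (441) and RPL27A (349), each a mean FPKM over 6 libraries. FPKM is divided by a transcript length, and the lengths the authors used are not given in the sources used here. In GENCODE the canonical transcripts of RPL37, RPL27A and RPS23 are 7573, 4535 and 3252 bases long, against a median of 827 bases over the 86 genes, and the part of this in their low FPKM was not tested. Across the 77 core genes, the level had a Spearman rho of -0.26 with transcript length and of 0.43 with transcript GC content, which are descriptions across genes of the same libraries.

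Most of these genes have processed pseudogenes, copies of the mRNA inserted elsewhere in the genome. RefSeq names a median of 14.5 pseudogenes per gene and up to 137 for RPL21, and 78 of the 86 genes have at least 1. The table lists 0 ribosomal protein pseudogenes, and how reads matching both a gene and its copies were assigned is not given in the sources used here. The level of a single member is uncertain to that extent, and across the 77 core genes it had a Spearman rho of -0.12 with the number of pseudogenes.

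The starts of these genes show the feature through which their translation is known to be set. An annotated start with a C followed by at least 4 pyrimidines was found in RefSeq (GRCh38.p14) for 48 of 69 members with a promoter in the table (69.6%), against 988 of 15843 protein-coding genes (6.24%), where a gene counts if any of its listed starts has it. Among the core proteins it was 46 of 62, and among the paralogs 1 of 5. The windows below run from 12 bases before the annotated start to 18 bases from it, on the gene's strand, with the tract in capitals where it begins at the start. They show 4 of the 5 most abundant members, then RPL38 and RPS24, a paralog with the tract, and members without it, all of which are described further on.
RPL41 (chr12:56116621-56116650, plus strand): aacttcgcctttCTCTCggccttagcgcca
RPS18 (chr6:33272063-33272092, plus strand): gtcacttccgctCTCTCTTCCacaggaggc
RPS27 (chr1:153990750-153990779, plus strand): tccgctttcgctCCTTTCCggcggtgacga
RPLP0 (chr12:120201094-120201123, minus strand): cgggcgcgaggcCCTTCTCTCgccaggcgt
RPL38 (chr17:74203666-74203695, plus strand): ggaagtctcgttCTTTTTCgtccttttccc
RPS24 (chr10:78033851-78033880, plus strand): cgaatcgtggttCTCTTTTCCTCCTTggct
RPL22L1 (chr3:170870178-170870207, minus strand): ggccgtagcttcCTCTCTgctctcgcggcc
RPS26 (chr12:56041906-56041935, plus strand): acacataacctcgattttcttccgccatcc
RPL36AL (chr14:49620609-49620638, minus strand): tttcttccctttcctgttaggcgagagctg
RPL26L1 (chr5:172958717-172958746, plus strand): cttccaggggtcggcgaacgaaacgcggag
RPS27L (chr15:63157460-63157489, minus strand): ttgatgccgagcgcagatcgcttgcagctt

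The tract was 5 bases in RPL41, 9 in RPS18 and RPLP0, 7 in RPS27 and RPL38 and 14 in RPS24. RPL22L1 was the paralog with a tract at its annotated start, of 6 bases. A start annotated a few bases off would hide a tract: the RPL36AL window has pyrimidines just before its start and the RPS26 window just after it. Core genes with the tract had a median of 1868 FPKM (n = 46) and those without it 1746 FPKM (n = 16). The motif CTTTCC, which can lie within the tract, was present on either strand of the 300-base promoter in 34 of 69 members (49.3%) against 32.0% of protein-coding genes. CCGGAAG, the core bound by ETS factors, was present in 24 of 69 (34.8%) against 16.5%, and AAGATGGC, the core bound by YY1, in 7 of 69 (10.1%) against 4.66%. These are matches of letters and not measurements of binding.

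Depletion of lncRNA-IUR1 was not accompanied by a called change of any ribosomal protein gene. With limma and Benjamini-Hochberg adjustment, 0 of 86 members passed an adjusted p of 0.05, and 0 of 12276 genes tested did (0.0%). A linear model without moderation also left 0 genes after adjustment. At an unadjusted p under 0.05, 0 of 86 members were found in either direction, where 203 of all genes tested were higher (1.65%) and 122 lower (0.994%). Adjusted p-values of the members ran from 0.930 to 0.998. The differences were small: 78 of 86 members had a log2 fold change within 0.1 of 0, and for 51 of 86 the whole 95% interval lay between -0.2 and 0.2. Neither share was computed over all genes tested, so small differences cannot be called particular to the members.

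More members lay on the lower side. In sh-IUR1 63 of 86 were lower and 23 higher, with a median log2 fold change of -0.02, where 42.0% of all genes tested were lower and the median was 0.02. The tilt varied with the scaling. After quantile normalization 45 of 86 were lower, beside 51.0% of all genes. After median-ratio scaling 69 of 86 were lower, beside 49.3%, and after scaling to the genes that are not members 61, beside 39.0%. The tilt turned with 1 library. Without the unnumbered sh-luc library 33 of 86 members were lower and 53 higher, with a median of 0.02, beside 47.3% lower among all genes tested and a median of 0.00. Single members changed direction in 32 of 86 cases when that library was left out, and 0 members passed an adjusted p of 0.05 with limma in either fit.

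**Figure D1:**
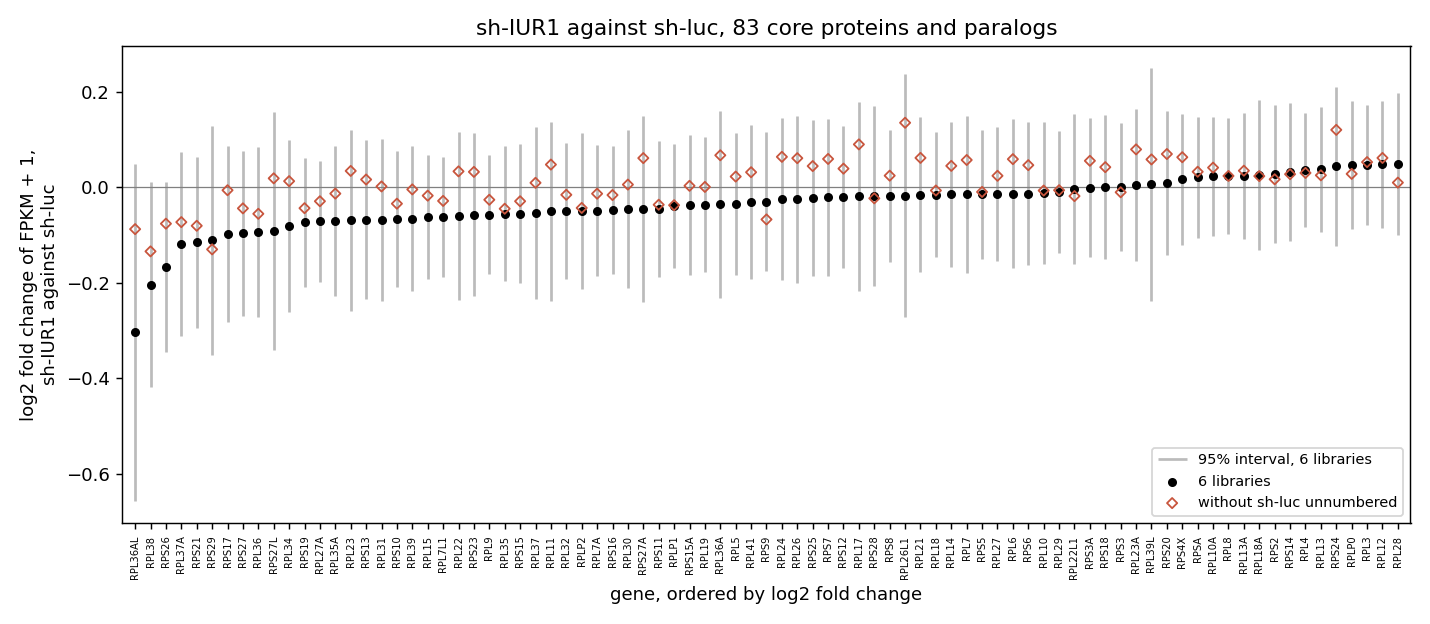
Log2 fold change of FPKM + 1 in sh-IUR1 against sh-luc for the 83 core proteins and paralogs, ordered by value, with filled points and grey 95% intervals for 6 libraries and open diamonds without the unnumbered sh-luc library. Every interval includes 0, and 70 of 83 diamonds sit above their filled point, with 50 of 83 above 0.

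The unnumbered sh-luc library held the highest value of 56 of 86 members (65.1%), against 24.1% of all genes tested. Next was sh-IUR1 r1, with the highest value of 20 members. The lowest value was most often in sh-luc r2 (35 members), sh-IUR1 unnumbered (23) or sh-IUR1 r2 (15). Taking each gene's deviation from its own mean over 6 libraries, the median over members was 0.11, -0.01 and -0.05 on the log2 scale in sh-luc unnumbered, r1 and r2. In sh-IUR1 unnumbered, r1 and r2 it was -0.03, 0.04 and -0.04. The medians thus spread more widely within sh-luc than the members' median log2 fold change of -0.02 between the groups. Other gene lists moved with the same library: the median deviation in sh-luc unnumbered was -0.73 for the integrated stress response genes and 0.14 for the erythroid markers. Their part in the level of the ribosomal protein genes was not tested.

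These shifts were ordered by GC content. The members' transcripts spanned 38.1% to 63.6% GC. In sh-luc unnumbered members with the lowest GC content (38.1% to 45.0%, n = 29 of 86) had a median deviation of 0.15, and those with the highest (50.8% to 63.6%, n = 29) of 0.02. In sh-IUR1 r1 the order was opposite, with -0.02 in the AT-rich members and 0.08 in the GC-rich ones. Accordingly, sh-luc unnumbered held the highest value of 25 of 29 AT-rich members and of 9 of 29 GC-rich ones, and sh-IUR1 r1 of 1 and 18. Over the 86 members, Spearman's rho of the deviation with GC content was -0.57, 0.11 and 0.60 for sh-luc unnumbered, r1 and r2. For sh-IUR1 unnumbered, r1 and r2 it was -0.21, 0.62 and -0.33.

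Over all genes the relation had the same sign in each library. Over 11923 tested genes with a GC content, rho was -0.33, 0.03 and 0.44 in the sh-luc libraries in the same order. For those of sh-IUR1 it was -0.23, 0.39 and -0.15. These are descriptions across genes, which share their libraries. The 12 members on chromosome 19 were GC-rich (53.6% to 61.3%), and in sh-luc unnumbered their median deviation was 0.02 against 0.13 for the other 74. Each library was also adjusted by loess for the GC content and length of transcripts. After that 50 of 86 members were lower in sh-IUR1, with a median log2 fold change of -0.01, beside 52.2% of all genes. The unnumbered sh-luc library still had the highest median deviation of the members, 0.06, and the highest value of 44 of 86 members. After this correction the same values over all genes were not computed. Over the members, rho with GC content was then -0.29 in sh-luc unnumbered, 0.34 in sh-luc r2 and -0.09 to 0.20 elsewhere. The part of GC content in the shift was not tested further.

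**Figure D2:**
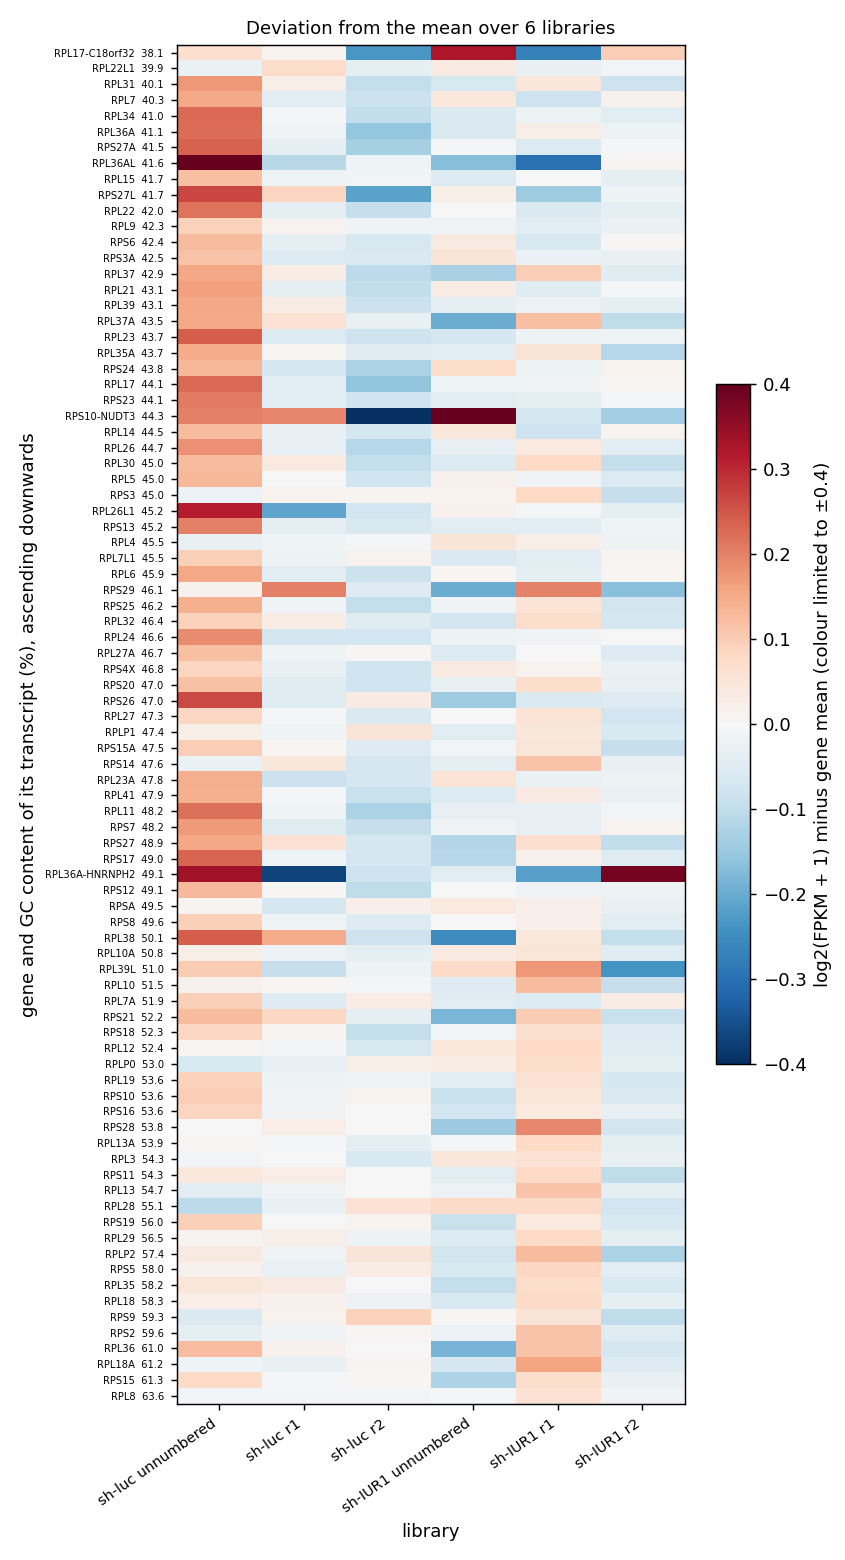
Deviation of each of the 86 members from its own mean over 6 libraries, as log2(FPKM + 1), with genes in rows by rising GC content and libraries in columns. The unnumbered sh-luc column is red over the AT-rich genes and pales downwards, whereas sh-IUR1 r1 turns red towards the GC-rich genes.

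RPS26 was the only member whose groups did not overlap, where 3.03% of all genes tested were lower without overlap and 4.04% higher. RPS26 lies at the mRNA exit of the small subunit and is mutated in Diamond-Blackfan anaemia. It had 611, 491 and 520 FPKM in sh-luc and 460, 488 and 490 FPKM in sh-IUR1. The unnumbered sh-luc library was far above the rest, and sh-luc r1 exceeded the highest sh-IUR1 library by less than 1 FPKM. The log2 fold change was -0.17 ± 0.08 (SE; limma, adjusted p = 0.930), the two-sided exact permutation test gave p = 0.1, which is the smallest it can give with 3 against 3, and without sh-luc unnumbered the log2 fold change was -0.08. RefSeq names 59 pseudogenes of RPS26.

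RPL38, a small protein of the large subunit, had the smallest p of all members. It had 2265, 2123 and 1811 FPKM in sh-luc and 1612, 1973 and 1793 FPKM in sh-IUR1. The groups overlapped, with sh-luc r2 below sh-IUR1 r1, and sh-IUR1 unnumbered was lowest. The log2 fold change was -0.20 ± 0.10 (SE; limma, adjusted p = 0.930), and -0.13 without sh-luc unnumbered.

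RPS21, a protein at the solvent side of the small subunit, had 1749, 1697 and 1562 FPKM in sh-luc and 1411, 1718 and 1505 FPKM in sh-IUR1. RPL37A, a zinc-binding protein of the large subunit, had 2281, 2135 and 2011 FPKM in sh-luc and 1789, 2232 and 1914 FPKM in sh-IUR1. In both genes the unnumbered and r2 libraries of sh-IUR1 were below all of sh-luc, and sh-IUR1 r1 was among the high ones. Their log2 fold changes were -0.12 ± 0.08 and -0.12 ± 0.09 (SE; limma, adjusted p = 0.930 for each). Both became -0.05 without sh-IUR1 unnumbered, and -0.19 for RPS21 and -0.21 for RPL37A without sh-IUR1 r1. RPS29, which encodes one of the shortest ribosomal proteins and was chosen after its values were seen, had the same shape, at 1201, 1365 and 1144 FPKM in sh-luc and 1034, 1363 and 1056 FPKM in sh-IUR1. Without sh-IUR1 r1, 5 of 86 members were lower at an unadjusted p under 0.05 (limma), beside 105 of 12276 genes tested. These were RPL37A, RPL38, RPS21, RPS29 and RPL36, the last likewise chosen after its values were seen. In that fit 0 of 86 members passed the adjusted threshold.

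On the higher side, the smallest p-values belonged to RPL3, RPL12, RPLP0, RPL28 and the readthrough gene RPS10-NUDT3. RPL3, which reaches into the peptidyl transferase centre, had 2427, 2451 and 2345 FPKM in sh-luc and 2522, 2546 and 2394 FPKM in sh-IUR1. RPL28, a protein of the large subunit, had 943, 993 and 1056 FPKM in sh-luc and 1068, 1067 and 961 FPKM in sh-IUR1. Both overlapped between groups, since sh-IUR1 r2 lay within the range of sh-luc. Their log2 fold changes were 0.05 ± 0.06 and 0.05 ± 0.07 (SE; limma, adjusted p = 0.931 and 0.936). That of RPL28 was 0.0097 without sh-luc unnumbered and 0.10 without sh-IUR1 r2, and that of RPL3 was 0.03 without sh-luc r2 and 0.07 without sh-IUR1 r2.

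The stalk of the large subunit, which recruits and activates translation factors, is formed by RPLP0 with RPLP1 and RPLP2, and RPL12 lies at its base. RPLP0 had 4359, 4440 and 4623 FPKM in sh-luc and 4644, 4783 and 4438 FPKM in sh-IUR1. RPL12 had 2642, 2619 and 2519 FPKM in sh-luc and 2712, 2784 and 2549 FPKM in sh-IUR1. Both overlapped between groups, with log2 fold changes of 0.05 ± 0.06 (SE; limma, adjusted p = 0.935 for RPLP0 and 0.932 for RPL12). RPLP1 and RPLP2 had log2 fold changes of -0.04 and -0.05, so 2 of the 4 stalk genes were higher and 2 lower, with or without sh-luc unnumbered.

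RPL5 and RPL11 bind 5S ribosomal RNA, and outside the ribosome this particle binds MDM2 and stabilises p53. RPL11 had 3040, 2575 and 2388 FPKM in sh-luc and 2547, 2551 and 2590 FPKM in sh-IUR1. RPL5 had 1965, 1795 and 1695 FPKM in sh-luc and 1814, 1776 and 1726 FPKM in sh-IUR1. In both genes sh-luc alone spanned all of sh-IUR1, from its unnumbered library at the top to r2 at the bottom. The log2 fold changes were -0.05 ± 0.08 for RPL11 and -0.04 ± 0.07 for RPL5 (SE; limma, adjusted p = 0.946 and 0.951), and without sh-luc unnumbered they were 0.05 and 0.02.

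Around the peptidyl transferase centre, where peptide bonds form, RPL8 was the most even member listed. It had 2540, 2539 and 2540 FPKM in sh-luc and 2546, 2665 and 2535 FPKM in sh-IUR1, so only sh-IUR1 r1 stood apart from the others. Of RPL3, RPL8 and RPL10, 2 were higher and 1 lower. Of the 9 proteins listed around the exit tunnel, through which the new chain leaves, 7 were lower in sh-IUR1 (median log2 fold change -0.04), and without sh-luc unnumbered 7 were higher (median 0.03). RPS2, RPS3, RPS15 and RPS23, which line the decoding centre and mRNA channel, had 2 genes on each side of 0 in both fits. They were not the same genes, since without sh-luc unnumbered RPS3 went from 0.0011 to -0.0105 and RPS23 from -0.0575 to 0.0322.

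RPS6, the substrate of the S6 kinases downstream of mTOR, had 2444, 2178 and 2141 FPKM in sh-luc and 2296, 2149 and 2247 FPKM in sh-IUR1. The sh-luc range enclosed that of sh-IUR1, and the log2 fold change was -0.01 ± 0.07 (SE; limma, adjusted p = 0.976). RPS2, RPS3, RPS10 and RPS20 receive regulatory ubiquitin when ribosomes stall or collide. Of these 3 were higher and 1 lower, with log2 fold changes from -0.07 to 0.03, of which RPS3 had 0.0011 and RPS20 0.0094. Without sh-luc unnumbered 2 were higher and 2 lower.

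Of 20 genes mutated in Diamond-Blackfan anaemia or deleted in the 5q- syndrome, 18 were lower in sh-IUR1 and 2 higher. Beside this, 63 of all 86 members and 42.0% of all genes tested were lower. Of the 20 genes, 0 passed an unadjusted p of 0.05 (limma). Their median log2 fold change was -0.05, and without sh-luc unnumbered 11 were lower and 9 higher, with a median of -0.01. RPS19, the gene most often mutated in this anaemia, had 2361, 2208 and 2229 FPKM in sh-luc and 2075, 2267 and 2118 FPKM in sh-IUR1. RPS14, the ribosomal gene of the 5q- deletion, had 2745, 2885 and 2669 FPKM in sh-luc and 2729, 3027 and 2738 FPKM in sh-IUR1. Both overlapped between groups, with log2 fold changes of -0.07 ± 0.06 for RPS19 and 0.03 ± 0.06 for RPS14 (SE; limma, adjusted p = 0.930 and 0.954). That of RPS19 was -0.04 without sh-luc unnumbered and -0.11 without sh-IUR1 r1. RPS24, of the same list, was higher in 3 of 3 sh-IUR1 libraries than in sh-luc r1 and r2, at 2289, 1991 and 1912 FPKM in sh-luc and 2198, 2059 and 2108 FPKM in sh-IUR1. The unnumbered sh-luc library exceeded all of them, so the groups overlapped, and over all 6 libraries the log2 fold change was 0.04 ± 0.07 (SE; limma, adjusted p = 0.948). It was 0.12 without that library and -0.01 without sh-luc r2. RPS24 was chosen after its values were seen.

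The paralogs were expressed far below their core proteins. RPL36AL reached 16.3% ± 2.18 of the summed FPKM of the pair RPL36A and RPL36AL in sh-luc and 13.9% ± 1.46 in sh-IUR1 (SD, n = 3). RPL7L1, which acts in ribosome assembly, made up 6.06% and 5.88% of its pair with RPL7. RPL22L1 made up 2.78% and 2.87% of its pair with RPL22, and RPL26L1 2.74% and 2.75% of its pair with RPL26. RPL39L, known from the testis, and RPS27L, a p53 target, stayed below 1% of their pairs with RPL39 and RPS27. All 6 pairs overlapped between the groups.

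RPL36AL had the largest log2 fold change of the members, and it rested on 1 library. It had 289, 178 and 190 FPKM in sh-luc and 171, 156 and 194 FPKM in sh-IUR1. The unnumbered sh-luc library stood far above the others, and the remaining 5 overlapped. The log2 fold change was -0.30 ± 0.16 (SE; limma, adjusted p = 0.930), and -0.09 without that library. RPL26L1 and RPS27L had their highest value in the same library, at 67.4 FPKM against 46.6 to 54.7 FPKM and at 32.0 FPKM against 22.6 to 28.1 FPKM. RPL22L1 did not, with 12.5, 13.4 and 12.3 FPKM in sh-luc and 13.1, 12.4 and 12.6 FPKM in sh-IUR1, although RPL22 was at 511 FPKM there against 412 to 440 FPKM elsewhere.

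The 3 readthrough genes were the least expressed members and, with RPL36AL, the most variable between libraries. RPL36A-HNRNPH2 had 12.1, 7.01 and 8.79 FPKM in sh-luc and 9.04, 7.91 and 12.5 FPKM in sh-IUR1. RPS10-NUDT3 had 1.16, 1.15 and 0.19 FPKM in sh-luc and 1.59, 0.79 and 0.71 FPKM in sh-IUR1. RPL17-C18orf32 had 0.39, 0.34 and 0.13 FPKM in sh-luc and 0.66, 0.10 and 0.42 FPKM in sh-IUR1. All 3 overlapped between groups, and each shares exons with far more abundant genes, so the reads assigned to them are uncertain.

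Genes that work with the ribosomal proteins were also without a call. FAU encodes a small-subunit protein that is made fused to a ubiquitin-like protein, and the naming rule leaves it out. FAU had 1069, 942 and 990 FPKM in sh-luc and 887, 924 and 921 FPKM in sh-IUR1. The 3 values of sh-IUR1 were below all of sh-luc, as in 3.03% of all genes tested, with a log2 fold change of -0.13 ± 0.06 (SE; limma, adjusted p = 0.930). Without sh-luc unnumbered, its highest library, the log2 fold change of FAU was -0.08. Of 16 other TOP mRNAs, such as those of elongation and initiation factors, 11 were lower and 5 higher, with a median log2 fold change of -0.01, and without sh-luc unnumbered 6 were lower and 10 higher.

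EEF1A1, the elongation factor that brings aminoacyl-tRNA to the ribosome, had 8111, 7802 and 7440 FPKM in sh-luc and 7996, 7666 and 7926 FPKM in sh-IUR1. EEF2, the translocase, had its lowest value in sh-luc unnumbered, at 2047 FPKM, and lay between 2392 and 2639 FPKM in the other 5 libraries. The order of libraries thus differed between these abundant TOP mRNAs.

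Of 15 escort and assembly proteins, 6 were higher and 9 lower, with log2 fold changes from -0.12 for LTV1 to 0.14 for PDCD2L. Of 14 regulators of TOP mRNAs, 10 were higher and 4 lower, with a median of 0.03. Without sh-luc unnumbered 6 were higher and 8 lower, with a median of -0.01. MYC, which drives transcription of ribosomal protein genes, had 141, 173 and 175 FPKM in sh-luc and 176, 179 and 172 FPKM in sh-IUR1. The unnumbered sh-luc library was lowest, and the others lay close together. LARP1 was between 76.3 and 84.8 FPKM in all libraries. In these lists 0 of 46 genes passed an adjusted p of 0.05 with limma, nor an unadjusted p of 0.05.

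The authors assigned every listed gene to 1 of 9 clusters by its profile over the 6 libraries. Cluster 3 held 43 of the 86 members and cluster 8 held 25, where these clusters contained 11.7% and 10.8% of all listed genes. The remaining members were spread over 5 clusters, and clusters 5 and 9 held 0. Members in cluster 3 had a median GC content of 45.0% and those in cluster 8 of 53.9%. The clusters were made from the same values and describe them without adding a measurement.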

How the data were processed

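Total RNA of K562 cells was sequenced in 6 libraries, 3 each of sh-luc and sh-IUR1 cells. The study's methods name hg38 as the genome and SAMtools 0.1.19 as the source of the authors' RPKM. Before alignment, adaptors had been cut off and low-complexity or unreliable stretches masked. The aligner and annotation are not given in the sources used here. The file headers call the deposited values FPKM. The authors also deposited a score (the z-score of a gene's FPKM over 6 libraries), a cluster number and a fraction (cluster membership). No test used the scores or fractions. Only genes with an SD of at least 0.05 FPKM are in the table.

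Genes were named by RefSeq GRCh38.p14, and 12363 of 12486 matched. GC content and length came from GENCODE release 44 (canonical transcript). log2(FPKM + 1) was fitted, for genes averaging 0.1 FPKM or more, with limma 3.58.1 (eBayes with a trend, R 4.3.3) and Benjamini-Hochberg adjustment, so fold changes of low genes are understated. Depth was sought from 271 low values, trying the same depth for all libraries with GENCODE lengths. At most 34.3% were whole reads within 0.1. Libraries of unlike depth could not pass this search, so depth remains unknown and no count test was run. Tests were checked on simulated data. Named genes are the 5 highest and 5 lowest, the 5 per direction with the smallest p, the 5 most variable, the paralogs with their core proteins, and members of role lists. Alternatives changed the pseudocount, filter, scaling, moderation, replicate block and libraries. A GC and length correction (loess, span 0.5) was added after seeing the data. 1 gene of the lists is not reported here. The members and lists were chosen with earlier results of these data known.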

Additional observations from a re-analysis of the deposited data

How the results depend on the processing

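Under all 16 alternatives 0 of 86 members passed an adjusted p of 0.05 with limma, or an unadjusted p of 0.05 without moderation, which gave 207 higher and 137 lower genes in all. The count of members with a positive log2 fold change was 23. It became 41 with quantile normalization, 36 with the GC and length correction and 17 with median-ratio scaling. It was 25 with scaling to the genes that are not members, and 17 to 53 when 1 library was left out. The median log2 fold change of the members was -0.064 to 0.0205 without 1 library, turning positive without sh-luc unnumbered, and the difference in their share of summed FPKM was -0.647 to 0.155 percentage points, positive without that library. Members lower at an unadjusted p under 0.05, 0 in the main result, were 0 to 5 without 1 library. There was 1 with quantile normalization (RPS26) and 1 with the replicate number as a block (RPL36AL). Of 12276 genes tested, 60 to 258 were lower at that threshold without 1 library, 177 with quantile normalization and 178 with the block. The numbers were not treated as pairing the libraries, since deviations from the group means correlated at 0.04, 0.39 and -0.34 between libraries labelled unnumbered, r1 and r2 across genes, and the block changed no adjusted call.

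Of 34 named members 14 kept the sign of their log2 fold change under all alternatives. Without 1 library these ranged over -0.155 to -0.044 for RPS27, 0.022 to 0.075 for RPLP0, -0.296 to -0.130 for RPL38, -0.233 to -0.076 for RPS26, -0.436 to -0.088 for RPL36AL, 0.020 to 0.084 for RPL12, -0.126 to -0.0045 for RPL39, -0.086 to -0.029 for RPL7L1 and -0.072 to -0.019 for RPLP1. The remaining 20, all uncalled, changed sign when 1 library was left out, and the cause was not tested. Their ranges were -0.022 to 0.060 for RPS2, -0.085 to 0.032 for RPL41, -0.046 to 0.042 for RPS18, -0.121 to 0.033 for RPL22 and -0.088 to 0.061 for RPL26. The ranges were -0.127 to 0.135 for RPL26L1, -0.122 to 0.067 for RPL36A, -0.062 to 0.057 for RPL7, -0.222 to 0.019 for RPS27L and -0.124 to 0.0008 for RPLP2. In the role lists and the least expressed paralogs they were -0.084 to 0.022 for RPL5, -0.127 to 0.048 for RPL11, -0.049 to 0.046 for RPS6, -0.016 to 0.063 for RPS14, -0.0095 to 0.120 for RPS24, -0.079 to 0.128 for RPL39L and -0.025 to 0.031 for RPL22L1. The readthrough genes ranged over -0.036 to 0.261 for RPL17-C18orf32, -0.112 to 0.318 for RPS10-NUDT3 and -0.093 to 0.267 for RPL36A-HNRNPH2. Median-ratio scaling gave -0.020 for RPS18 and -0.013 for RPL39L. Quantile normalization gave -0.030 for RPS18, -0.016 for RPL39L, 0.018 for RPL26, 0.064 for RPL36A, 0.0063 for RPL7 and 0.010 for RPL5. Scaling to the genes that are not members gave 0.0039 for RPL22L1, and the GC and length correction gave 0.0028 for RPL22L1, 0.016 for RPL26, 0.013 for RPL26L1 and 0.0024 for RPL7.

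An exact permutation test of 3 against 3 libraries cannot give a p below 0.1, and the median half-width of the members' 95% intervals was 0.15 on the log2 scale. FPKM is relative within a library, so a change of all mRNAs together would not show. Reads shared with pseudogenes, paralogs or readthrough partners limit what can be said of single members.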
